A study of Mus musculus with 14 samples.

Results

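Polycomb repressive complex 2 (PRC2) trimethylates lysine 27 of histone H3, and the genes that encode it were examined here for this mark, H3K27me3. The 10 genes were the enzymes Ezh1 and Ezh2, the core subunits Eed, Suz12 and Rbbp4, the Polycomb-like genes Mtf2, Phf1 and Phf19, and Jarid2 and Aebp2, out of 21938 protein-coding genes of the mouse annotation. For each gene, the sites of the deposited H3K27me3 list were taken that overlapped the window of 1 kb on either side of any of its transcription start sites (TSSs) or the gene body, and the distance from a TSS to the nearest site was measured. The genes were chosen by name and not by any value of the list, although earlier results of these data were known.

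The cells were immortalised mouse embryo fibroblasts (iMEF) in which exon 4 of floxed Ash2l had been deleted by an inducible Cre, and which lived on a lentiviral fusion of human ASH2L to an FKBP12F36V tag. ASH2L is a subunit of the KMT2 complexes that methylate histone H3 at lysine 4, and the PROTAC dTAG-13 has the tagged fusion marked with ubiquitin and degraded. The study mainly used 1 clone, NG3. H3K27me3 was measured in 12 ChIP-seq libraries, 2 replicates each of cells without dTAG-13 and of cells exposed for 30 min, 2 h, 4 h, 8 h or 16 h, and chromatin input in 2 further libraries, from cells without dTAG-13 and at 16 h. All groups carried the same deletion and the same fusion protein. The list is 1 set of sites over all samples. It holds no value for any library, so it allows no comparison of the genes between groups or over time, no replicate error can be given, and the depth behind a site is unknown. The study also names a list of sites that changed at each time, which was not analysed here.

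PRC2 has a core of EZH1 or EZH2, which carry the methyltransferase activity, EED, which binds the finished mark, SUZ12, which holds the core together, and the histone chaperone RBBP4. In the form PRC2.1 this core is joined by one of the Polycomb-like proteins MTF2, PHF1 and PHF19, which bind DNA rich in unmethylated CpG, and in the form PRC2.2 by JARID2 and AEBP2. H3K27me3 is found at CpG-rich promoters of silent developmental genes and spreads from there as broad domains.

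The following stretches of sequence show what lay under and beside the sites at these genes. They are printed 5′ to 3′ on the strand of the gene, in mouse GRCm38, in lower case with every CpG in capitals. The first and second compare the bases just before the 5′-most annotated start of Phf19, which lay inside a broad site, with those of Rbbp4, which lay in no site. They were cut from the RefSeq promoter table (GRCm38.p6), in which all 10 genes had an entry. The last one is a narrow site of Jarid2 in a coding exon.
Phf19, minus strand, chr2:34914027-34914226: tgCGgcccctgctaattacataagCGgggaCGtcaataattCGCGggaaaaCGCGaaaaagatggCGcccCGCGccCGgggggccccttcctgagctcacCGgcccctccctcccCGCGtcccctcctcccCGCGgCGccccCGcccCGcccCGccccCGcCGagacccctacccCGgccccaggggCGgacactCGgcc
Rbbp4, minus strand, chr4:129335371-129335620: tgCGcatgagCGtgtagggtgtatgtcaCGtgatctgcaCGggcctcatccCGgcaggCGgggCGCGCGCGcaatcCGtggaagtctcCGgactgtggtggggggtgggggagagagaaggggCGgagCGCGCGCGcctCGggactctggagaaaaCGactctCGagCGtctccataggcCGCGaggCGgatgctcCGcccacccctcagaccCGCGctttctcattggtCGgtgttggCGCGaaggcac
Jarid2 site, plus strand, chr13:44906419-44906655: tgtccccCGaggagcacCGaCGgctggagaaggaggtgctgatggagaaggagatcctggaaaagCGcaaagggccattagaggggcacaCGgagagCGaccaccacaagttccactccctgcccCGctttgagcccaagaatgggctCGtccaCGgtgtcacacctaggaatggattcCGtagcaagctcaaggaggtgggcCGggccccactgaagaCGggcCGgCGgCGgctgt
The 200 bases before Phf19 held 25 CpG at a GC content of 74.5%, and the 250 bases before Rbbp4 held 30 CpG at 67.6%. Dense CpG was thus present on both sides of this comparison, with a site and without one. The Jarid2 site held 15 CpG at 62.9% GC, and the assembly masks none of its bases as a repeat.

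Of the 10 PRC2 genes, 4 had a site in a TSS window (Ezh1, Ezh2, Phf19 and Rbbp4), 5 had one in the body (Ezh2, Suz12, Jarid2, Phf19 and Rbbp4) and 6 had one in either. Eed, Mtf2, Phf1 and Aebp2 had none. Among all protein-coding genes, 31.5% had a site in a TSS window, 46.7% in the body and 48.0% in either, so the counts of the PRC2 genes lay near the background. Of sites at least 1 kb wide, only Phf19 had one, in the TSS window as well as in the body, against 20.1% and 23.2% of all protein-coding genes. At Ezh1, a site of 1124 bp lay 1078 bp upstream, just outside the window.

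The likelihood of a site differs with promoter type and gene length, and the counts were therefore also set beside genes of the same kind. By the sequence around the 5′-most TSS, 7 of the 10 promoters were CpG-rich (all but Jarid2, Phf1 and Aebp2), against 9738 of 21938 overall. Jarid2 and Phf1 missed the limits narrowly. Jarid2 had 49.3% GC where 50% was required, and Phf1 an observed to expected CpG ratio of 0.59 where 0.6 was required. The 4 genes with a site in a TSS window were all among the 7 CpG-rich ones, and 25.5% of all genes with a CpG-rich promoter had such a site. The site may lie at any TSS, and that of Ezh2 lay 54404 bp from the start that set its class. With only the 5′-most start, 3 genes remained (Ezh1, Phf19 and Rbbp4), against 25.3% of all protein-coding genes. A site of at least 1 kb was present in a TSS window of 1 of the 7, and of 16.9% of all genes with a CpG-rich promoter. In the body, Phf1, the only gene under 20 kb, had no site, where 35.0% of genes of that length had one. Of the 6 genes of 20 to under 50 kb, 3 had a site (48.8% of all such genes), as did 1 of the 2 genes of 50 to under 100 kb (62.4%), namely Ezh2 and not Aebp2. Jarid2, with a body of 192170 bp, fell in the class of 100 kb or more, in which 81.6% of genes had a site.

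The 6 genes carried 14 sites, 13 in a body and 4 in a TSS window. They ranged from 200 to 3554 bp with a median of 274 bp, and 13 were under 1 kb. In the whole list of 153983 sites the median width was 455 bp and 23.3% were at least 1 kb wide. At 3 of the 14 sites, 1 each at Ezh1, Suz12 and Phf19, the width was 200 bp, the smallest in the list.

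**Figure D1:**
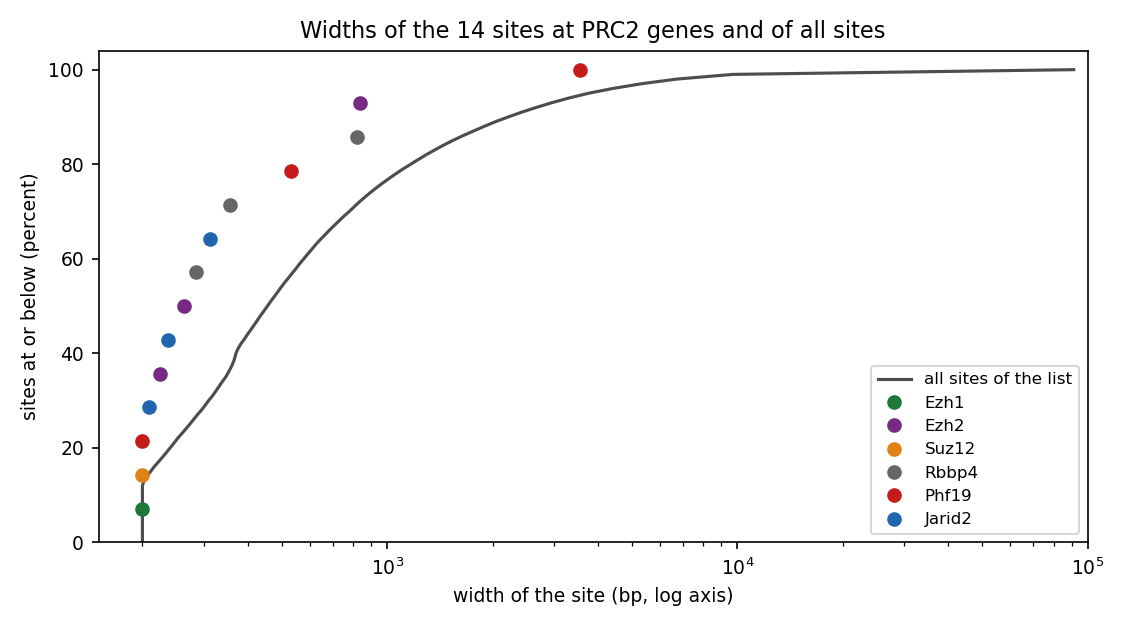
Width of each of the 14 H3K27me3 sites in a TSS window or body of a PRC2 gene (points, coloured by gene) and of all 153983 sites of the list (line), as the percentage of sites at or below each width on a log axis in bp. The other 13 points lie under 1 kb and only the 3554 bp site over the start of Phf19 is wider.

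The enzyme genes Ezh1 and Ezh2 both had a site in a TSS window, in neither case over the 5′-most start. Ezh1 (chr11:101191115-101226463, minus strand) had no site in its 35349 bp body. Its site of 200 bp lay 577 to 776 bp upstream of the gene, between genes. It was the first of a row: sites of 1124, 4076 and 1504 bp followed at 1078, 2378 and 7115 bp upstream. Joined across gaps under 1 kb, these 4 sites made a block of 8042 bp, 85.8% of it covered, which touched no protein-coding gene. Beyond it, a site of 8202 bp covered the start of Ramp2, an accessory subunit of the calcitonin-receptor-like receptor. The block thus ended short of Ezh1, and the gene itself was free of sites.

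Ezh2 (chr6:47530139-47595341, minus strand) had 3 sites in its body of 65203 bp, which covered 2.03% of it. A site of 836 bp lay in an intron, at 12437 bp from the 5′-most start. A site of 263 bp lay over exon 15 of the transcript Ezh2-201, a coding exon, 54404 bp from that start. It counted in the TSS window because short transcripts begin inside it, the protein-coding Ezh2-214 and the retained intron Ezh2-210. The third site, of 225 bp, overlapped the last exon, exon 20. Around the 5′-most start of Ezh2, the nearest site was 6259 bp upstream.

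Among the other core subunits, Eed (chr7:89954654-89980983, minus strand) had no site in its body of 26330 bp, and the nearest, of 365 bp, lay 11876 bp upstream. Suz12 (chr11:79993106-80034123, plus strand) had a single intronic site of 200 bp, 0.488% of its body of 41018 bp, at 10450 bp from the nearest TSS. Upstream of Suz12, 6 sites lay between 17227 and 41230 bp from its start, with widths up to 2038 bp, on the side of its neighbour Utp6. Rbbp4 (chr4:129307100-129335370, minus strand) had 3 sites, which covered 5.17% of 28271 bp. All 3 lay over coding exons of Rbbp4-201: a site of 356 bp over exon 2, one of 285 bp over exon 3 and one of 821 bp over exons 4 to 6. The first began 638 bp downstream of the 5′-most start and covered the start of the non-coding transcript Rbbp4-203. The start of Rbbp4 itself, with the CpG-dense sequence printed above, was not in a site.

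The Polycomb-like genes differed among themselves. Phf19 (chr2:34893757-34914026, minus strand) had a site of 3554 bp that reached from 1892 bp upstream to 1661 bp downstream of its start and held 136 CpG at 57.1% GC. In the whole list, 5.42% of sites were at least this wide. Further sites of 532 bp, over exon 2, and of 200 bp, in an intron, followed in the gene, and together 11.8% of its body of 20270 bp was covered. Upstream, sites of 3985 and 7972 bp began at 2225 and 7233 bp from the start. Joined across gaps under 1 kb, the promoter site became a block of 8640 bp made of 3 sites, and across gaps under 5 kb one of 20028 bp made of 5. On the other side of Phf19, a site of 17725 bp lay over Cutal and Psmd5, its downstream neighbours, and the 3′ part of Phf19 between them was free of sites.

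Mtf2 and Phf1 had no site in a TSS window or body. The nearest site to Mtf2 (chr5:108065674-108109004, plus strand) was 262 bp wide and 37481 bp upstream, and it was 1 of only 2 sites within 50 kb of the gene. Phf1 (chr17:26933052-26937908, plus strand) is the shortest of the genes, with a body of 4857 bp. Its nearest site, of 782 bp, lay 17371 bp upstream. This site closed a group of 6 on the side of Kifc5b, the widest of 1866 bp, that reached to 24840 bp from Phf1.

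**Figure D2:**
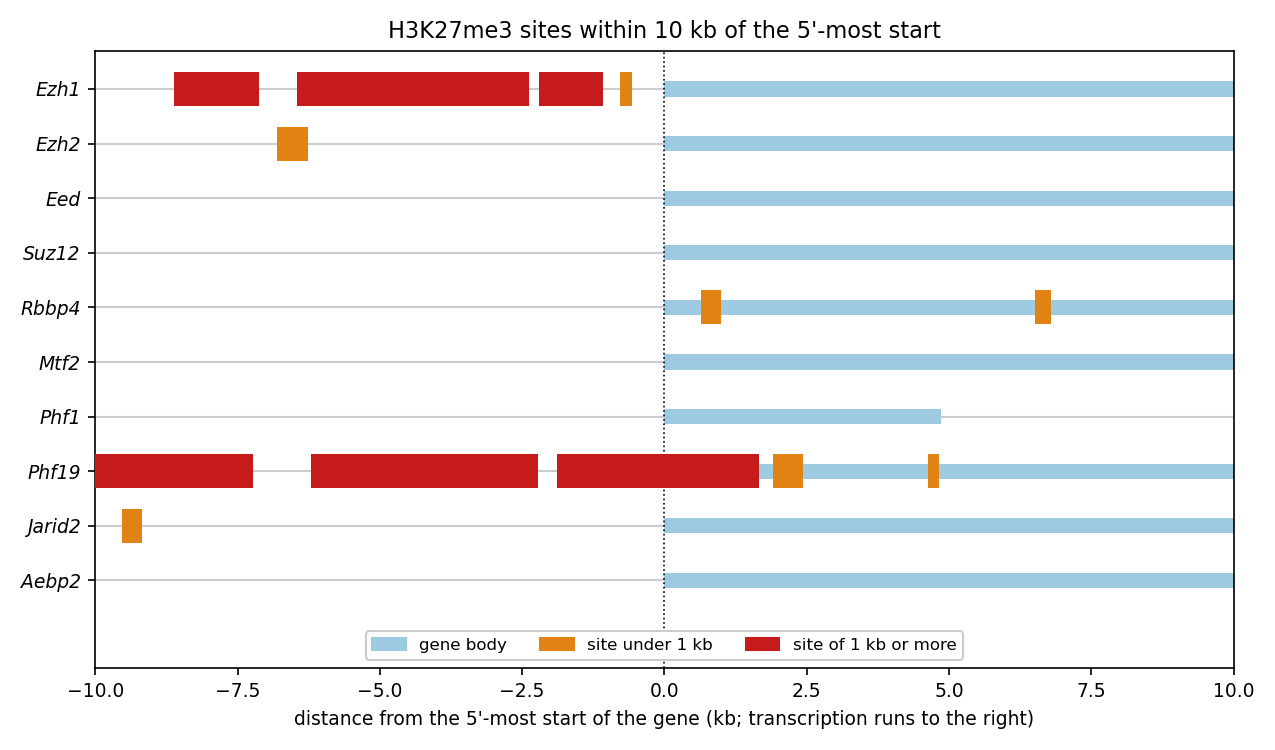
Sites (boxes to scale, orange under 1 kb, red 1 kb or more) within 10 kb of the 5′-most start of each PRC2 gene, at 0 on the axis in kb, with the gene body in blue and transcription to the right. At Phf19 a red site covers the start, at Ezh1 a row of sites ends 577 bp before it, and Eed, Suz12, Mtf2, Phf1 and Aebp2 show no site.

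Of the PRC2.2 genes, Jarid2 (chr13:44729474-44921643, plus strand), whose protein recruits PRC2 and is itself a substrate of it, had 3 sites in its body, of 209 and 312 bp in introns and of 237 bp in a coding exon, exon 9 of Jarid2-201. They covered 0.394% of the body. The exonic site lay 176945 bp from the 5′-most start. None lay within 1 kb of a TSS, and the nearest site to any TSS, of 348 bp, was 9182 bp upstream. Aebp2 (chr6:140622663-140678472, plus strand), which encodes a zinc finger cofactor, had no site in its body of 55810 bp and was farthest from one, with 57236 bp between its nearest TSS and a site of 362 bp downstream of the gene.

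The distance to the nearest site therefore ran from 0 at Ezh2, Phf19 and Rbbp4 through 577 bp at Ezh1, 9182 bp at Jarid2, 10450 bp at Suz12, 11876 bp at Eed, 17371 bp at Phf1 and 37481 bp at Mtf2 to 57236 bp at Aebp2. By nearest site, Ezh1 was the farthest gene inside the window and Jarid2 the nearest outside. The next site at Ezh1, of 1124 bp, lay 1078 bp upstream, just beyond the limit. With a window of 2 kb Ezh1 had 2 sites. The median was 9816 bp for the 10 genes and 5288 bp for all protein-coding genes. A site covered a TSS in 3 of the 10 genes and in 21.6% of all genes, and 6 of the 10 were more than 5 kb away, as were 50.8% of all genes. For Ezh2 and Rbbp4 the 0 rests on starts of shorter transcripts within the gene, which at Rbbp4 is a non-coding one. With only the starts of protein-coding transcripts, Rbbp4 was 351 bp and Suz12 17227 bp away. From the 5′-most start, Ezh2 was 6259 bp and Rbbp4 638 bp from a site, and only Phf19 remained at 0.

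**Figure D3:**
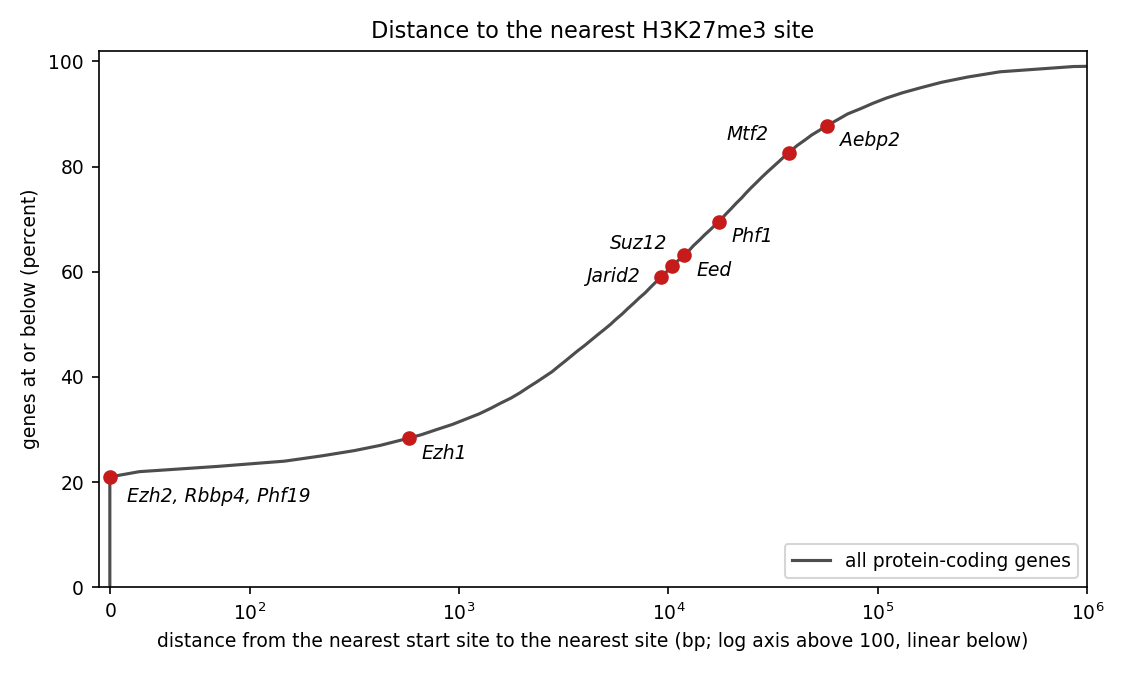
Distance in bp from the nearest TSS to the nearest H3K27me3 site (axis logarithmic above 100 bp) against the percentage of protein-coding genes at or below it (line), with the 10 PRC2 genes as points. Ezh2, Phf19 and Rbbp4 sit at 0, Ezh1 at 577 bp, and the other 6 lie beyond the median gene at 5288 bp, up to Aebp2 at 57236 bp.

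The genes also differed in their surroundings. Within the gene and 50 kb on either side, sites covered 35.8% of the bases at Phf19 and 13.0% at Ezh1. At the other 8 genes they covered between 0.437% (Mtf2) and 5.33% (Phf1). The median over all protein-coding genes was 3.81%, and 91.7% of genes had less than Phf19 and 72.1% less than Ezh1. Eed, Aebp2 and Mtf2, with 3, 3 and 2 sites in this range, had few sites in a wide stretch, and none of these reached 1 kb. Of the 79 sites in the range of the 10 genes, 14 were at least 1 kb wide, and these belonged to Phf19 (7), Ezh1 (4), Suz12 (2) and Phf1 (1).

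**Figure D4:**
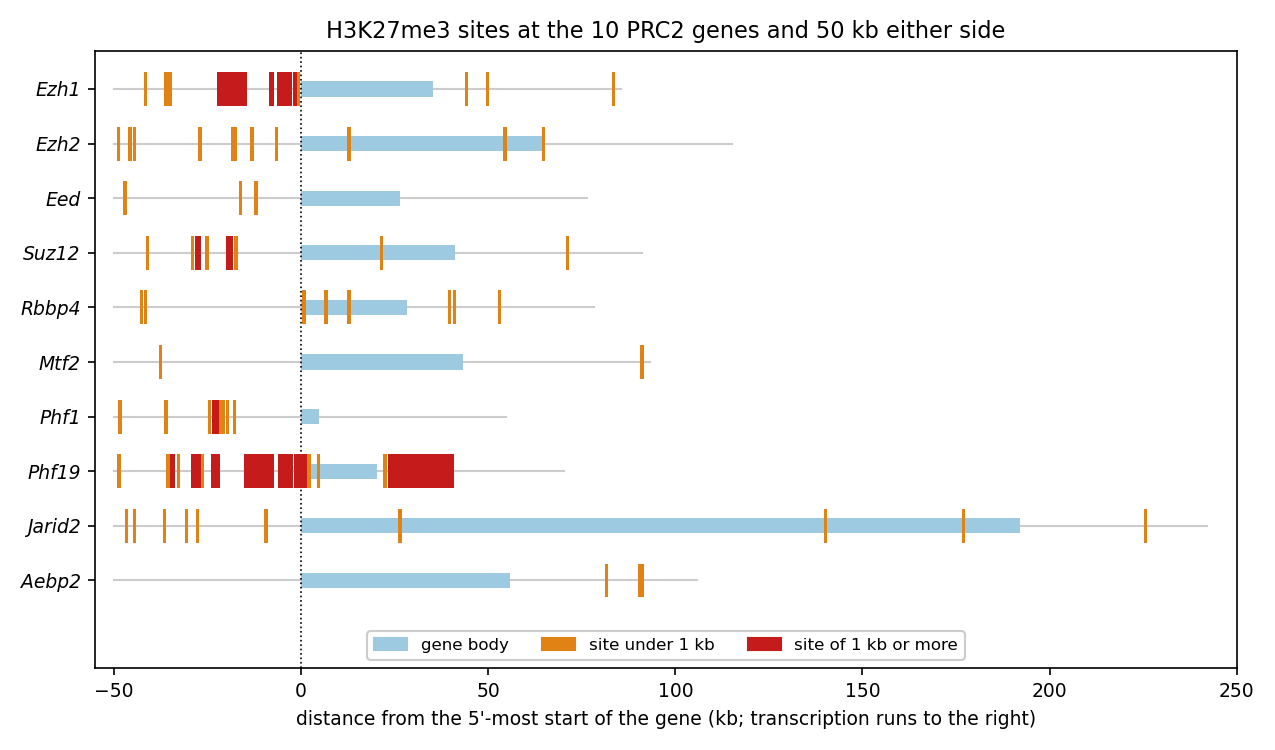
Sites at the 10 PRC2 genes and 50 kb on either side (orange under 1 kb, red 1 kb or more; the narrowest are drawn 0.9 kb wide to be visible), by distance in kb from the 5′-most start, with the gene body in blue. Broad sites flank Phf19 on both sides and lie upstream of Ezh1, Suz12 and Phf1, and no broad site lies inside a body other than at the start of Phf19.

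**Figure D5:**
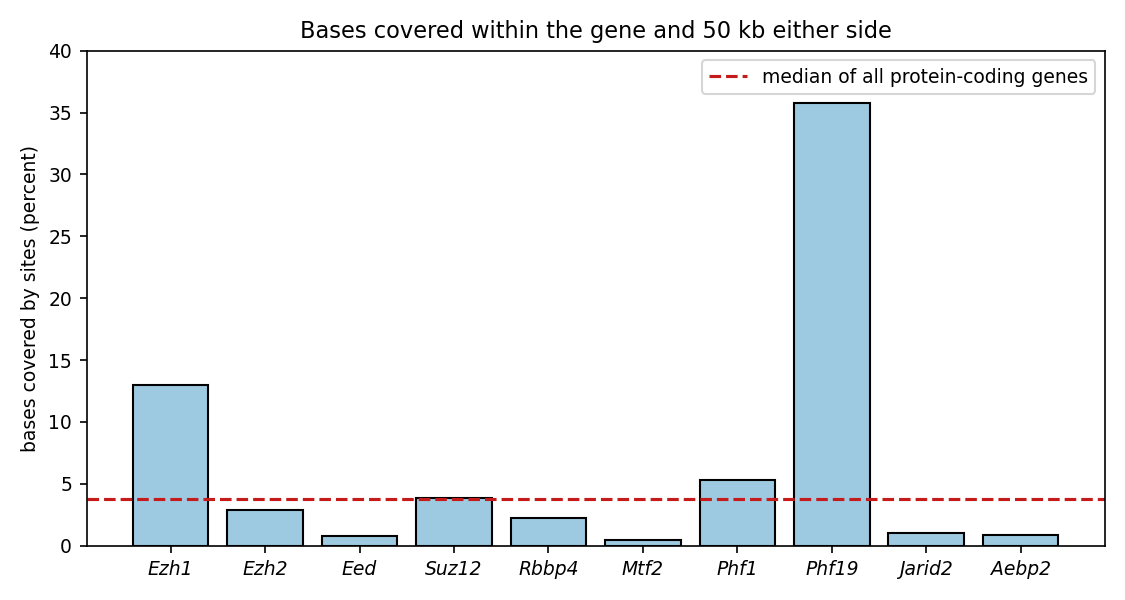
Percentage of bases covered by H3K27me3 sites within each PRC2 gene and 50 kb on either side (bars, from 0), with the median of all protein-coding genes (dashed line, 3.81%). Phf19 at 35.8% and Ezh1 at 13.0% stand above the line with Suz12 and Phf1, and the other 6 genes lie below it.

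The 14 sites were chosen by their place in a TSS window or body, which bears on their exon content and base composition. Of the 13 sites in a body, 8 overlapped an exon of the gene (61.5%) and 7 overlapped coding sequence (53.8%). Exons made up 12.8% and coding sequence 3.95% of the bases of the 10 bodies. A site counted if any of its bases touched an exon, so shares of sites and of bases are unlike measures. Over all protein-coding genes, 34.0% of 66172 pairs of a site and a body overlapped an exon of that gene and 27.8% its coding sequence. Of sites under 1 kb alone, 26.3% overlapped an exon and 21.2% coding sequence, and 7 of the 12 narrow sites in the PRC2 bodies overlapped both. The exonic sites belonged to Ezh2 (2), Rbbp4 (3), Phf19 (2) and Jarid2 (1). The 14 sites had a median GC content of 43.5% and 1.70 CpG per 100 bp, against 47.9% and 1.05 over all sites. Over all sites under 1 kb the medians were 47.9% and 1.0. Both of these sets include sites outside genes. The CpG were unevenly spread, from 0.351 per 100 bp in the exon 3 site of Rbbp4 to 6.33 in the exon 9 site of Jarid2, with 3.83 in the broad Phf19 site. Repeat content varied as well, and 3 of the 14 sites had no base masked as a repeat. The only site of Ezh1 was 82.0% masked, the only site of Suz12 79.0% and the 312 bp site of Jarid2 35.6%.

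Whether reads could be placed at these genes was checked on the sequence. Stretches of 75 bases, the cycles per read of the study, occurred once in the primary assembly for 98.1% to 100.0% of those in the TSS windows of each gene and for 96.6% to 100.0% of those in the bodies. All stretches were unique in 12 of the 14 sites, and the lowest share, 95.4%, was in the 312 bp site of Jarid2. For Eed, Mtf2, Phf1 and Aebp2, the genes without sites, the shares in the TSS windows were 98.5% to 99.2%. At Rbbp4, 58.9% of stretches also occurred in sequences of other mouse strains that belong to the assembly release, as did 55.3% to 73.0% of those in its 3 sites.

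The same measures were taken for other genes of histone methylation, as a frame for the PRC2 genes, and are to be read against the 48.0% of all protein-coding genes with a site in either and the 20.1% with one of at least 1 kb in a TSS window. Of 5 further PRC2 partners, Epop, which joins the Polycomb-like form, lay whole within a site of 9798 bp, Lcor had 2 exonic sites and Rbbp7, AU022751 (the gene of EZHIP) and Lcorl had none. Among the H3K27 demethylases, Kdm6a had 4 sites in its body and Uty 2, all under 1 kb, and Kdm6b had none. Of the 18 genes of PRC1, the complex that binds H3K27me3 through its CBX subunits, 7 had a site in a TSS window or body, and Bmi1, Cbx2, Cbx7, Cbx8 and Phc2 had a site of at least 1 kb in a TSS window, which are 38.9% and 27.8% of them. Of 10 genes of ASH2L and the KMT2 complexes, 3 (30.0%) had a site in either, none of 1 kb. Of the 39 Hox genes, the classic targets of PRC2, 29 had a site in either and 22 one of at least 1 kb in a TSS window, against 1 of the 10 PRC2 genes. Of 8 genes active in fibroblasts, 3 (37.5%) had a site in either and none had one of 1 kb, counts too small to check the labelled cell type.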

How the data were processed

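H3K27me3 ChIP-seq had been done on 12 libraries, with 2 inputs. The authors used Trim Galore for trimming, BWA for alignment to mm10 (GRCm38.p6) and samtools for filtering, merged replicates with Picard, reduced libraries to the lowest coverage and called broad peaks with MACS; versions, thresholds and the rule for joining peaks are not given in the sources used here. The deposited list holds positions (chromosome, start, end) and no signal, so no test could be run and the planned description was used. Positions were read as counted from 0 and are printed from 1. Genes, transcripts and exons came from GENCODE M21, an earlier release than the study's. A CpG-rich promoter had at least 50% GC and an observed to expected CpG ratio of at least 0.6 within 500 bp of the 5′-most TSS. All 10 PRC2 genes were named by rule. The genes and lists were chosen with earlier results of these data known. Overlaps were computed in Python 3.11.15 with pandas 2.3.3 and numpy 2.4.6, and tested on simulated data. The 11 alternatives concerned site width, joining, window, TSSs, overlap and counting of positions. The sequences of some sites are not reported here.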

Additional observations from a re-analysis of the deposited data

How the results depend on the processing

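The counts depended on the width of the sites. With sites of at least 500 bp, 1 gene had a site in a TSS window (Phf19), 3 in the body (Ezh2, Phf19 and Rbbp4) and 3 in either, where 24.2%, 29.6% and 30.7% of all genes did, the median distance was 17755 bp (17792 bp over all genes) and the median share of a body covered was 0%. With sites of at least 1 kb, the counts were 1, 1 and 1 (20.1%, 23.2% and 24.1% of all genes), the distance 77469 bp (34890.5 bp over all genes) and the share 0%. The 3 counts and 2 medians moved by no more than 1.5 times under the other alternatives that applied to them. The shares over all genes could move more. With a window of 5 kb, 4 genes had a site in a TSS window and 6 in either, while 49.2% and 56.8% of all genes did. A window of 500 bp dropped Ezh1, and only the 5′-most start dropped Ezh2, which left 3 genes each time (27.8% and 25.3% of all genes). Over single genes, 196 of 240 values moved by no more than 1.5 times. Window and TSS choices do not enter the body measures, nor window and overlap the distance, and were not run there. No paired analysis was possible because the sites come without values per library, so no replicate could be left out either. The depth behind a site is unknown, and a gene without a site may still carry the mark below the threshold of the calls.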
